A study of Mus musculus with 4 samples.

Results

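The genes described here act in the storage and translational control of messenger RNA in the growing mouse oocyte. They were followed in germinal vesicle (GV) stage oocytes with and without γ-irradiation. The set consists of 10 genes chosen by symbol, Ybx2, Zar1, Zar1l, Cpeb1, Lsm14b, Ddx6, Eif4enif1, Eif4e1b, Patl2 and Pabpc1l, out of 17374 genes in the expression table. The rule that picks them uses symbols and no expression value, and the set was drawn up with earlier results of these data known. All 10 genes were present in the table and all 10 passed the filter on low counts, together with 12569 genes in all.

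A growing oocyte transcribes far more messenger RNA than it translates, and the surplus is kept for meiotic maturation and the first divisions of the embryo, when the genome is silent. Storage rests on proteins that coat the message (YBX2, ZAR1, ZAR1L), on an RNA helicase and its partners that form repressed particles (DDX6, LSM14B, PATL2), on a block at the cap of the message (EIF4E1B, EIF4ENIF1), and on proteins that set the length or use of the poly(A) tail (CPEB1, PABPC1L). Mice without Ybx2, Zar1, Lsm14b, Patl2 or Pabpc1l have been described with female subfertility or infertility.

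The oocytes came from non-primed female mice of a C57/Bl6/DBA2J F1 hybrid background on day 16 of post-natal development. They were freed of cumulus cells and kept in medium with bovine serum albumin and milrinone, an inhibitor that holds meiosis at the GV stage, in both groups. The irradiated group received 5 Gy from a cesium source and was sequenced 24 h later, and the control group was not irradiated. Each group had 2 libraries of pooled oocytes from independent experiments, with 59 oocytes per condition in the study's methods, so that a library is a mean over many cells and not a single oocyte. The series' design note speaks of control cells as sequenced directly, and the time the controls spent in culture is not given in the sources used here, so irradiation and time in culture cannot be told apart if those times differed. A library value is the amount of RNA relative to the rest of the RNA in that library, so less RNA per oocyte and fewer contributing oocytes cannot be told apart. RNA was captured by oligo(dT), so the values are of polyadenylated RNA.

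Estimated counts summed to between 33349466 and 37232818 per library. The 10 oocyte markers examined (among them Zp3, Gdf9 and Nobox) summed to between 29293 and 31370 TPM. That even sum held markers that moved in opposite directions in irradiated library 2. Zp2 had 4290, 4452, 4115 and 1937 TPM (both controls first, then irradiated library 1 and irradiated library 2), and Oosp1 had 2400, 2498, 2200 and 1038 TPM. Nobox had 398, 440, 468 and 1215 TPM, and Zp1 had 989, 1294, 1175 and 2579 TPM. The part of this movement in the values of the storage genes was not tested. By comparison, the 12 granulosa and cumulus markers summed to between 16.7 and 22.3 TPM, with 8 of 12 under 1 TPM in every library and Amh, Foxl2 and Wt1 not listed. The highest of those sums belonged to irradiated library 2. The theca and stroma markers ranged from 1.12 to 2.48 TPM in sum, again highest in irradiated library 2, and the immune and blood markers from 1.58 to 3.50 TPM, all of it Cd68. Irradiated library 2 stood apart from the other 3 libraries. Over 8707 genes with a mean normalized count of at least 100, the SD of the log2 ratio between a pair of libraries was 0.19 to 0.22 among the other 3 libraries and 0.44 to 0.49 for each pair that included irradiated library 2. Its scaling factor (trimmed mean of M values, TMM) was 1.19, against 0.923 to 0.975 in the others. The counts of the 10 genes are therefore given for each library, and the part this library had in a difference is given by the value without it. No value without that library is given for other genes.

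For the 3 most abundant genes of the set, the 250 bases before 1 transcription start, the one the RefSeq promoter table holds for each gene, are printed 5′ to 3′ in the direction of transcription (GRCm38.p6, minus strand in all 3); they let a reader compare the letters before a start of 2 paralogs, Zar1 and Zar1l, whose values part in irradiated library 2. Capitals mark the letters CANNTG (an E-box, the kind of site that basic helix-loop-helix factors such as the oocyte factor FIGLA use), TAATTG (a site of the homeobox factor NOBOX) and TATAAA (the core promoter element that binds the general factor TBP), each searched on both strands. The windows are chr5:72581085-72581334 for Zar1, chr5:150518160-150518409 for Zar1l and chr7:81454759-81455008 for Cpeb1. The annotated loci of these genes reach further upstream than these starts, so the windows of Zar1 and Cpeb1 lie wholly inside their loci and that of Zar1l overlaps its locus at the edge.
Zar1: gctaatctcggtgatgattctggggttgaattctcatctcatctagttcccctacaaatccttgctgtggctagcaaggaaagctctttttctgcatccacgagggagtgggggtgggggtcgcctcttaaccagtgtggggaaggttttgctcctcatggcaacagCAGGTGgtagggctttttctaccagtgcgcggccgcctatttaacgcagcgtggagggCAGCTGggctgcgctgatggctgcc
Zar1l: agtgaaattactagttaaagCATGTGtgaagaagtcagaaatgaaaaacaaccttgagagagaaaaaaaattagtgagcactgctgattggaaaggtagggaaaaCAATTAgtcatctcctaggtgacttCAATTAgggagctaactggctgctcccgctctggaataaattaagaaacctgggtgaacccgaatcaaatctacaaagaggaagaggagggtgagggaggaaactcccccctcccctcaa
Cpeb1: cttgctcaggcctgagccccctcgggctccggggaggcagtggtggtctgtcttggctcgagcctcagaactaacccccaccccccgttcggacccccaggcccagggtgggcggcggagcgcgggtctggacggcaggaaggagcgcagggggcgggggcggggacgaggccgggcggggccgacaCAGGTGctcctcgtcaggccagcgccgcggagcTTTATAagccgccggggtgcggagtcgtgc
The Zar1 window held 2 E-box matches, one of them CAGCTG, and no match to the other motifs. The Zar1l window held 1 E-box match and 2 TAATTG matches, and the Cpeb1 window 1 E-box match and 1 TATAAA match. Of 32851 windows of the same length in the RefSeq table, 66.2% held CANNTG, 13.0% CAGCTG, 7.17% TAATTG and 12.4% TATAAA, so an E-box match alone sets none of the 3 genes apart. The windows differed in composition, with 42.8% G and C in Zar1l, 55.6% in Zar1 and 74.0% in Cpeb1, against a median of 52.4% over all windows. A match is a run of letters and was not tested as a binding site.

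The protein CPEB1 binds messages at the cytoplasmic polyadenylation element, written TTTTAT or TTTTAAT in DNA letters, and holds them with short tails until maturation. The last 120 bases of the annotated 3′ end could be searched on the sense strand for 9 of the 10 genes (GENCODE transcripts on GRCm38, no 3′ end matched for Zar1l). Ybx2 alone held a match, 1 of 9 genes or 11.1%, against 22.1% of 10692 genes tested. The site is shown because it is the only element of this kind found in the set, with the element in capitals, at chr11:69941532-69941561 on the plus strand of GRCm38, in the 3′ UTR.
Ybx2: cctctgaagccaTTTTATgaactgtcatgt
The element ended 48 bases before the annotated end of the transcript. A poly(A) signal (AATAAA or ATTAAA) lay within the last 50 bases in 8 of the 9 genes (88.9%, against 78.9% of all genes tested), and Ybx2 was the gene without one. The ends searched were those of known transcripts. For Ybx2, Zar1, Cpeb1, Eif4enif1 and Pabpc1l this was the most abundant transcript of the gene. The searched transcript held at most 4.77% of the estimated count in Patl2, 8.09% in Lsm14b, 12.6% in Ddx6 and 22.8% in Eif4e1b. The share of genes with an element therefore need not hold for the transcripts with most reads. The window says nothing of elements further upstream or at other ends.

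The levels of the 10 genes covered a wide range. In TPM (a share of the library's transcripts after correction for their length, so that genes can be compared with each other), the mean over the 4 libraries fell from 565 for Zar1l through 482 for Zar1, 202 for Cpeb1 and 121 for Patl2 to 53.9 for Eif4enif1, 41.6 for Eif4e1b, 27.0 for Ybx2, 23.0 for Pabpc1l, 12.2 for Ddx6 and 9.10 for Lsm14b. By mean TPM, Zar1l ranked 269 among all genes, Zar1 316, Cpeb1 686 and Patl2 1030, while Lsm14b ranked 4565. The ranges over the 4 libraries overlapped between Zar1l and Zar1, between Ddx6 and Lsm14b, and between Ybx2 and each of Eif4enif1 and Pabpc1l. They also overlapped between Eif4e1b and each of Patl2, Eif4enif1, Ybx2, Pabpc1l and Lsm14b. Compared within each library, Eif4enif1 lay above Ybx2, Patl2 above Eif4e1b and Eif4e1b above Lsm14b in all 4 libraries. The order within the other pairs changed between libraries and is not fixed by these data. The place of Eif4e1b rested on irradiated library 2. Without that library, a setting chosen after the data were seen, its mean was 15.2 TPM, below Pabpc1l (21.7) and Ybx2 (21.4) and above Ddx6 (11.4), and of the 10 genes only Pabpc1l and Ybx2 still had overlapping ranges. The 10 genes together summed to 1413 and 1492 TPM in control libraries 1 and 2 and to 1597 and 1643 TPM in irradiated libraries 1 and 2.

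**Figure D1:**
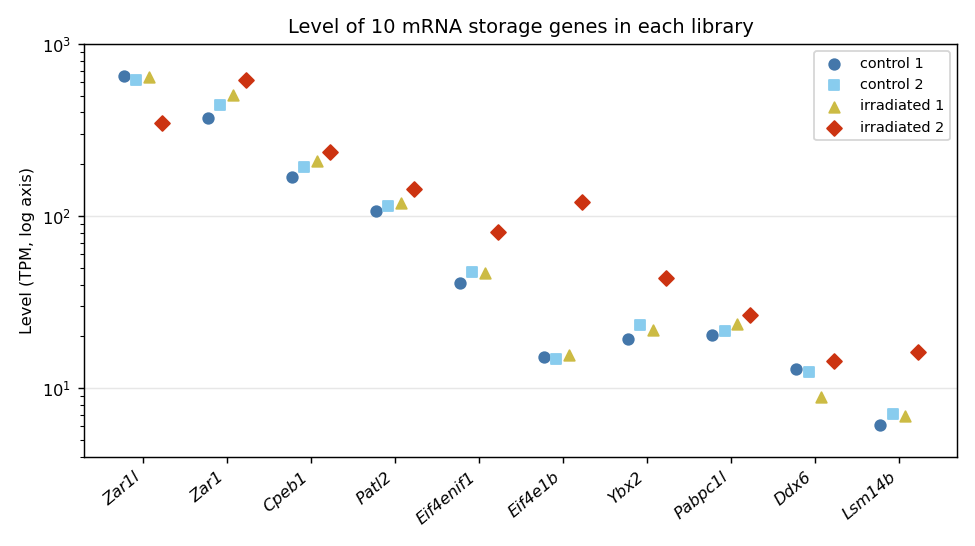
TPM (log axis) of each of the 10 genes in each of the 4 libraries, 2 control and 2 irradiated, 1 point per library. Zar1l, Zar1 and Cpeb1 lie highest and Ddx6 and Lsm14b lowest, and the points of Eif4e1b lie together near 15 TPM except irradiated library 2 at 121 TPM.

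The comparison of irradiated with control oocytes asked whether the storage genes changed 24 h after irradiation. No gene of the set passed the limits used in the study's methods, which ask for an adjusted p below 0.05 together with a difference of over 2 log2 units (0 of 10, against 0.00796% of the 12569 genes tested by edgeR's quasi-likelihood test, that is 1 gene). DESeq2 also called 0 of 10. At an unadjusted p under 0.05, edgeR gave 1 gene higher in irradiated oocytes, Eif4e1b (4.63% of all genes tested), and 1 lower, Ddx6 (1.29%), or 2 of 10 against 5.92% in either direction, and DESeq2 gave 0. The smallest adjusted p in the set was 0.708 (edgeR, Benjamini-Hochberg). The fitted log2 fold change was above 0 for 8 genes and below 0 for 2. Over all 12569 genes tested it was above 0 for 6459 and below 0 for 6110. The median was 0.17 in the set, beside 0.010 over all genes tested (quartiles -0.17 and 0.22). By TMM-normalized count, both irradiated libraries lay above both controls in 2 genes, Zar1 and Eif4enif1 (22.1% of all genes tested), and below them in 1 gene, Ddx6 (19.9%). On the TPM scale, the median log2 fold change was 0.18 over the 9452 genes with at least 1 TPM in at least 2 libraries. The higher group on that scale was Zar1, Cpeb1, Eif4e1b, Patl2 and Pabpc1l, 5 of 10 against 32.8% of all genes tested. No gene was lower (5.88%). Eif4e1b was in the higher group by a small gap, at 15.51 TPM in irradiated library 1 against 15.23 and 14.75 in control libraries 1 and 2.

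Among the proteins that coat the message, Zar1 and Zar1l took different courses over the libraries. Zar1 encodes a zinc-finger protein that binds the 3′ UTR of stored messages and is required at the passage from oocyte to embryo. Its locus is chr5:72577113-72581361. The estimated count of Zar1 was 10878 and 11551 in control libraries 1 and 2 and 13734 and 15644 in irradiated libraries 1 and 2. After TMM normalization the values were 11149 and 12519 in control and 14606 and 13471 in irradiated oocytes, so that both irradiated libraries were higher and the groups did not overlap. The log2 fold change of Zar1 was 0.25 (SE 0.183, edgeR adjusted p = 0.727), and it was 0.30 without irradiated library 2.

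Zar1l (chr5:150507055-150518194), the paralog of Zar1, is a further zinc-finger protein of the same storage particles. Its estimated counts were 13217 and 11349 in control libraries 1 and 2, 12128 in irradiated library 1 and 6122 in irradiated library 2. Irradiated library 1 lay between the controls and irradiated library 2 below all others, at 0.408 times the control mean by normalized count. The control mean of normalized counts was 12923 ± 881 (SD, n = 2) and the irradiated mean 9085 ± 5392 (SD, n = 2), with a log2 fold change of -0.51 (SE 0.383, edgeR adjusted p = 0.729). Leaving out irradiated library 2 gave -0.0022, and leaving out irradiated library 1 gave -1.31.

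A ratio of the 2 paralogs within a library does not depend on scaling between libraries. The ratio of Zar1 to Zar1l in TPM was 0.569 and 0.708 in control libraries 1 and 2, 0.785 in irradiated library 1 and 1.77 in irradiated library 2. Zar1l was thus the more abundant of the pair in 3 libraries and Zar1 in irradiated library 2.

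Ybx2 (chr11:69935805-69941604) encodes the germ-cell Y-box protein, also called MSY2, an abundant RNA-binding protein of the growing oocyte that stabilizes maternal messages. Ybx2 had estimated counts of 623, 664 and 651 in control libraries 1 and 2 and irradiated library 1, and 1214 in irradiated library 2. The first 3 values lay close together, and irradiated library 2 was 1.54 times the control mean after normalization. The log2 fold change was 0.36 (SE 0.208, edgeR adjusted p = 0.708), and without irradiated library 2 it was 0.029. Ybx1 and Ybx3, Y-box paralogs that somatic cells also use, varied less between libraries. Ybx1 had normalized counts of 909, 968, 866 and 916, and Ybx3 of 1154, 1130, 1139 and 1067, in the same order of libraries. In TPM both were highest in irradiated library 2, at 22.4 for Ybx1 and 32.4 for Ybx3. The share of the summed TPM of the 3 Y-box genes that Ybx2 held was 31.6% and 34.2% in control and 33.9% and 44.3% in irradiated oocytes.

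In the repressed particle, Ddx6 (chr9:44602983-44640731), the DEAD-box helicase at its core, was the one gene of the set whose irradiated libraries both lay below both controls by normalized count. Its estimated counts were 1066 and 930 in control and 682 and 1037 in irradiated oocytes, and its normalized counts 1093 and 1008 against 725 and 893. Irradiated library 1 was the lowest of the 4, at 0.691 times the control mean. The log2 fold change was -0.38 (SE 0.151, edgeR unadjusted p = 0.0421, adjusted p = 0.708). Without irradiated library 2 it was -0.53 and without irradiated library 1 it was -0.25, each resting on 1 irradiated library. In TPM the values were 12.9 and 12.5 in control and 8.88 and 14.4 in irradiated oocytes, and the groups overlapped on that scale.

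Lsm14b (chr2:180024900-180035466), a partner of DDX6 in the particle, was the least abundant gene of the set. Lsm14b had estimated counts of 397, 409 and 411 in control libraries 1 and 2 and irradiated library 1, and 909 in irradiated library 2. The 3 lower values were nearly equal, and irradiated library 2 was 1.84 times the control mean by normalized count. The log2 fold change was 0.52 (SE 0.263, edgeR adjusted p = 0.708), and it was 0.041 without irradiated library 2. The paralog Lsm14a had normalized counts of 2367 and 2435 in control and 2333 and 2009 in irradiated oocytes, so irradiated library 2 was the lowest for Lsm14a and the highest for Lsm14b on that scale. In TPM, Lsm14a was also highest there (29.7, 33.3, 31.2 and 36.7). Lsm14b held 17.1%, 17.6%, 18.0% and 30.8% of the TPM of the pair. Psma7, whose locus lies 901 bases from Lsm14b, had estimated counts of 48456, 43414, 43091 and 32910, lowest in irradiated library 2.

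Patl2 (chr2:122120108-122186189), the oocyte form of the PAT1 proteins that join the helicase to the 3′ end of the message, showed little spread. Patl2 had estimated counts of 6262 and 6068 in control and 6477 and 7332 in irradiated oocytes, or 6418, 6577, 6888 and 6314 after normalization. The groups overlapped, and the log2 fold change was 0.023 (SE 0.155, edgeR adjusted p = 0.963). Patl2 held between 98.4% and 98.9% of the TPM it shares with Patl1, the form of somatic cells. The annotated locus of Patl2 overlaps that of B2m, which had estimated counts of 1284, 1125, 1007 and 866. The strandedness of the libraries is not given in the sources used here, so the division of reads where the loci overlap is uncertain.

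At the cap, Eif4e1b (chr13:54783994-54788459) had the largest difference in the set. It encodes the oocyte form of the cap-binding protein eIF4E, found in repressed complexes with CPEB1 and EIF4ENIF1. Its estimated counts were 724 and 632 in control libraries 1 and 2, 676 in irradiated library 1 and 4848 in irradiated library 2. Irradiated library 1 lay between the controls, and irradiated library 2 was 5.85 times the control mean by normalized count. The control mean of normalized counts was 714 ± 40.4 (SD, n = 2) and the irradiated mean 2447 ± 2444 (SD, n = 2), so the SD of the irradiated group was about as large as its mean. The log2 fold change was 1.78 (SE 0.679, edgeR unadjusted p = 0.0347, adjusted p = 0.708). Without irradiated library 2 it was 0.011. Without irradiated library 1 it was 2.54 with an edgeR adjusted p of 9.78e-149, a value that rests on 1 irradiated library and assumes that it varies as the controls do.

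The other 3 genes of the eIF4E family were each lowest in irradiated library 2 by normalized count. Eif4e, the general cap-binding protein, had normalized counts of 24030 and 23380 in control and 22106 and 17530 in irradiated oocytes. That order depends on the scaling, since in TPM irradiated library 2 was the highest for Eif4e2 (52.1, 52.3, 53.8 and 63.8) and Eif4e3 (85.0, 83.1, 87.8 and 99.0), and Eif4e was lowest in irradiated library 1 (495, 511, 475 and 498). Eif4e1b held 2.35% and 2.23% of the family's TPM in control libraries, 2.45% in irradiated library 1 and 15.5% in irradiated library 2. Reads from the near neighbour Tspan17, 643 bases away, were few and even, with estimated counts of 26, 21, 19 and 24.

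Eif4enif1 (chr11:3202343-3244588) encodes 4E-T, the protein that binds eIF4E and carries it into repressed particles. For this gene the estimated counts were 3875, 3941 and 4029 in control libraries 1 and 2 and irradiated library 1, and 6474 in irradiated library 2. By normalized count the values were 3972, 4271, 4285 and 5575, so the groups were separate by the small gap between control library 2 and irradiated library 1, and in TPM they overlapped (41.1 and 47.1 against 46.6 and 80.7). The log2 fold change was 0.26 (SE 0.177, edgeR adjusted p = 0.714) and 0.057 without irradiated library 2. The locus overlaps Sfi1, which had estimated counts of 543, 466, 500 and 460.

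Among the genes that act on the poly(A) tail, Cpeb1 (chr7:81347026-81458001) was the most abundant. Its estimated counts were 13188 and 13376 in control and 14992 and 16101 in irradiated oocytes. After normalization they were 13517, 14497, 15943 and 13865, and the groups overlapped, with a log2 fold change of 0.090 (SE 0.189, edgeR adjusted p = 0.879). In TPM they were 170, 193, 208 and 237, with both irradiated libraries higher, so the separation of the groups depends on the scaling. Cpeb1 held between 98.6% and 98.8% of the TPM of the 4 Cpeb genes in every library.

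Pabpc1l (chr2:164024770-164050538) encodes the embryonic poly(A)-binding protein, the form that binds tails in oocytes before the embryo's genome is active. The libraries held 1288 and 1262 estimated counts in control and 1388 and 1468 in irradiated oocytes, or 1320, 1368, 1476 and 1264 after normalization. The groups overlapped, and the log2 fold change was 0.027 (SE 0.140, edgeR adjusted p = 0.951). Pabpc4, which had the highest TPM of the 3 poly(A)-binding proteins of this family measured here, had normalized counts of 4127 and 4075 in control and 5085 and 5624 in irradiated oocytes, with no overlap (log2 fold change 0.38, SE 0.148, edgeR unadjusted p = 0.0358, adjusted p = 0.708). Pabpc1l held 26.9%, 27.0%, 25.4% and 21.1% of the TPM of Pabpc1, Pabpc4 and Pabpc1l, and Pabpc1 between 3.71% and 5.74%.

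**Figure D2:**
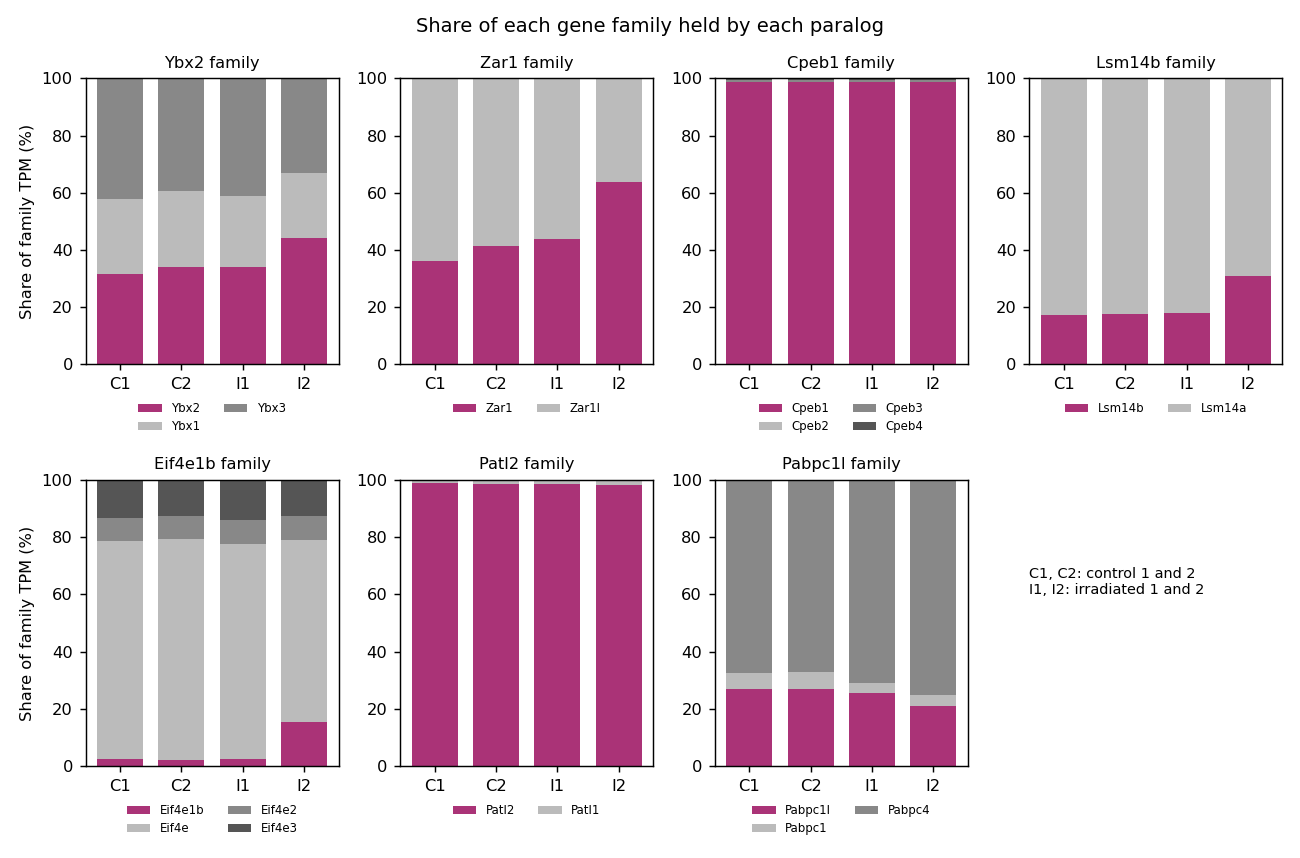
Share of the summed TPM (%) of each gene family held by each paralog, 1 stacked bar per library (C1 and C2 control, I1 and I2 irradiated), for the 7 families with a paralog. The share of Zar1, Eif4e1b, Lsm14b and Ybx2 is highest in irradiated library 2, while Cpeb1 and Patl2 hold over 98% in all libraries.

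Set against the control mean one library at a time, irradiated library 1 differed little for most of the set. Its ratio to the control mean of normalized counts was 1.01 for Eif4e1b, 1.03 for Lsm14b, 1.02 for Ybx2, 1.04 for Eif4enif1 and 0.998 for Zar1l, while Zar1 was at 1.23 and Ddx6 at 0.691. In irradiated library 2 the ratios were 5.85, 1.84, 1.54, 1.35 and 0.408 for the first 5 of these genes. The other 5 lay nearer to the control mean there, at 1.14 for Zar1, 0.850 for Ddx6, 0.990 for Cpeb1, 0.972 for Patl2 and 0.941 for Pabpc1l. Eif4e1b and Lsm14b lay more than 1.5-fold above each of the other 3 libraries there (5.94% of all genes tested), and Zar1l more than 1.5-fold below each of them (4.76%). None of the 10 genes stood apart by that measure in control library 1, control library 2 or irradiated library 1, where 0.318%, 0.358% and 0.382% of all genes did so upward and 1.46%, 1.11% and 1.12% downward. With irradiated library 1 left out, log2 fold changes were 2.54 for Eif4e1b, 0.87 for Lsm14b, 0.61 for Ybx2 and 0.42 for Eif4enif1. They were -1.31 for Zar1l, 0.18 for Zar1, -0.25 for Ddx6, -0.027 for Cpeb1, -0.053 for Patl2 and -0.10 for Pabpc1l. Such a fit rests on 1 irradiated library. The 1.5-fold limit was chosen after the values were seen. What made irradiated library 2 differ was not tested.

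**Figure D3:**
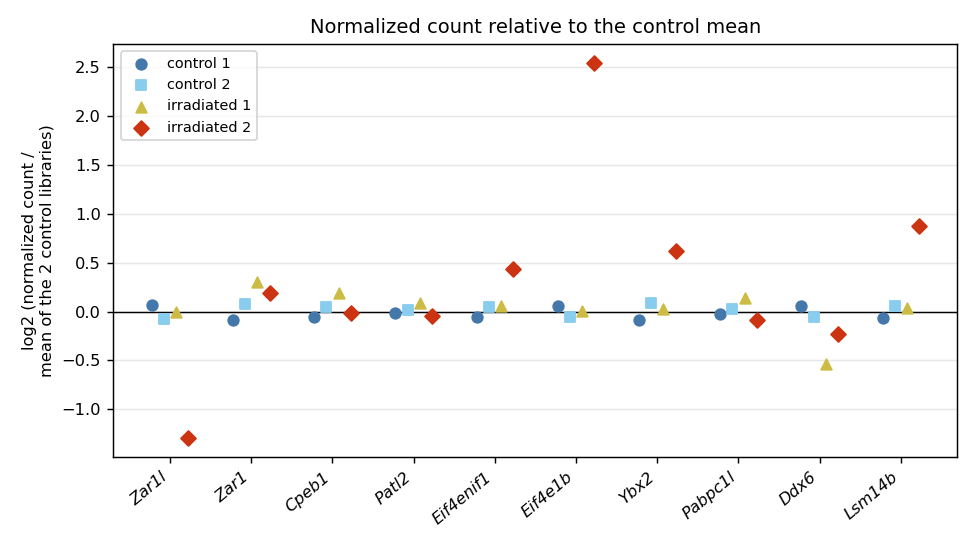
Log2 ratio of the TMM-normalized count to the control mean for each of the 10 genes, 1 point for each of the 2 control and 2 irradiated libraries. Irradiated library 2 departs from the other libraries for Eif4e1b, Lsm14b, Ybx2, Eif4enif1 and Zar1l, and irradiated library 1 departs most for Ddx6 (0.691 times the control mean).

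The other genes of mRNA storage and translational control formed a list of 50, of which 49 passed the filter on low counts (Igf2bp1 did not). None of the 49 passed both limits (0.00796% of all genes tested). At an unadjusted p under 0.05, edgeR gave 2 higher and 1 lower, against 4.63% and 1.29% of all genes tested, so that neither count stands out from the whole table. Higher were Pabpc4, given above, and Eif4ebp3, a repressor of eIF4E of low level, with normalized counts of 17.4 and 20.6 in control and 36.2 and 36.2 in irradiated oocytes (log2 fold change 0.93, SE 0.310, edgeR unadjusted p = 0.0207, adjusted p = 0.708). Lower was Dcp2, the decapping enzyme, with 1082 and 1142 in control and 934 and 595 in irradiated oocytes (log2 fold change -0.54, SE 0.214, edgeR unadjusted p = 0.0394, adjusted p = 0.708). By normalized count, irradiated libraries 1 and 2 were at 0.839 and 0.535 times the control mean for Dcp2. They were at 1.24 and 1.37 times for Pabpc4 and both at 1.90 times for Eif4ebp3. The fitted log2 fold change was above 0 in 19 of the 49 genes and below 0 in 30, with a median of -0.071. Over all 12569 genes tested it was above 0 in 6459 and below 0 in 6110. By normalized count, both irradiated libraries lay above both controls in 9 of the 49 (22.1% of all genes tested). They lay below both controls in 17 (19.9%).

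Irradiated library 2 also stood apart in this list, and the genes named next were chosen after their values were seen. It lay more than 1.5-fold above each other library in Pabpn1l, an oocyte poly(A)-binding protein, and Tent2, a cytoplasmic poly(A) polymerase, 2 of 49 against 5.94% of all genes tested. It lay more than 1.5-fold below them in 6, which were Dazl, Paip1, G3bp2, Atxn2l, Larp1 and Dcp2, against 4.76% of all genes tested. In the other 3 libraries the one gene of the list to stand apart was Pabpn1, more than 1.5-fold below the rest in control library 2 (1.11% of all genes tested). Dazl, a germ-cell protein that promotes translation during maturation, had normalized counts of 26737, 27367, 24549 and 13698. Pabpn1l had 5746, 7259, 6184 and 12828.

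The deposited table is by transcript, which shows how the reads of each gene were shared out among its RefSeq models. The 10 genes had 52 transcripts, 23 with RefSeq's prefix for known and 29 with that for predicted models, and 41 were tested. By edgeR none passed both limits, as for transcripts in general (0.0% of 26645), and 4 had an unadjusted p under 0.05 (4.9% of all transcripts tested). For Zar1l the split was even across libraries, with NM_001159693.2 at 8575, 7195, 7955 and 4043 estimated counts and XM_011241026.2 at 4552, 4079, 4120 and 2053. Both transcripts were lowest in irradiated library 2, and the first held 64.9%, 63.4%, 65.6% and 66.0% of the gene. For Eif4e1b the most abundant transcript, NM_001286178.1, had 297, 144, 250 and 1836 estimated counts, and the next 3 were also highest in irradiated library 2. Of its less abundant transcripts, NM_001286180.1 had 0, 17, 2 and 419. The predicted XM_017315486.2 went the other way, at 91, 26, 42 and 0.

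In Eif4enif1 the division of reads among transcripts differed between the libraries. Its main transcript NM_001166548.1 had 2882, 2926, 2844 and 3547 estimated counts, and its share of the gene was 74.4%, 74.3%, 70.6% and 54.8%. The predicted transcript XM_017314806.2 had 0, 125, 414 and 1567. The predicted transcript XM_006514841.3 had 3, 8, 145 and 372, higher in both irradiated libraries (log2 fold change 5.34, SE 0.771, edgeR unadjusted p = 0.00291, adjusted p = 0.777). XM_006514844.3 had 265 and 65 in control and 0 and 3 in irradiated oocytes, and NM_001166547.1 had 32 and 35 against 0 and 0. DESeq2 called 2 transcripts of the set, XM_006514841.3 as higher (log2 fold change 5.36, adjusted p = 4.19e-06) and XM_006514844.3 as lower (adjusted p = 0.000431), where it called 0.545% of 45505 transcripts. The test of isoform usage, which asks whether transcripts change their share of a gene, called 0 of 10 genes by edgeR's Simes method (0.253% of 6323 genes), with 1 of 10 at an unadjusted p under 0.05 (6.12%). That gene was Eif4enif1 (unadjusted p = 0.0234, adjusted p = 0.516 by edgeR).

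**Figure D4:**
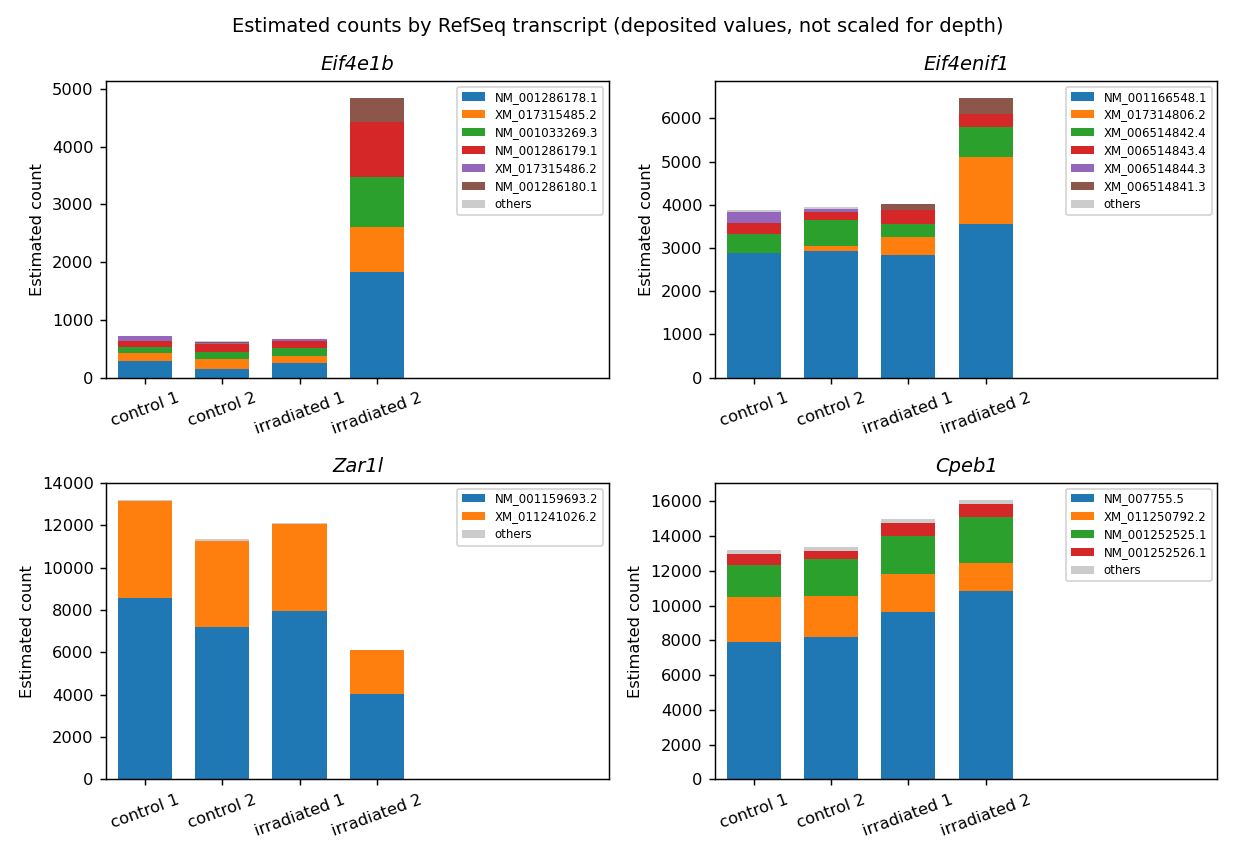
Estimated counts, not scaled for depth, of the RefSeq transcripts of Eif4e1b, Eif4enif1, Zar1l and Cpeb1, 1 stacked bar per library; transcripts under 5% of the gene in every library are summed as others. The bar of Eif4e1b reaches 4848 in irradiated library 2 with several transcripts higher together, and that of Zar1l falls to 6122 there with both main transcripts lower.

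Most of the reads of some genes sat on predicted models. In Lsm14b, XM_006500619.3 had 357, 369, 313 and 890 estimated counts, and the known transcript NM_177727.4 had 20, 30, 33 and 0. In Patl2, XM_017319224.2 held between 91.0% and 96.6% of the gene. In Cpeb1 the known transcript NM_007755.5 held 60.1% and 61.1% of the gene in control and 64.4% and 67.5% in irradiated oocytes, and the predicted XM_011250792.2 had 2536, 2370, 2188 and 1607 estimated counts. In Zar1, NM_174877.3 held between 95.8% and 97.2%, and the minor XM_006503990.4 had 306 and 331 in control and 492 and 655 in irradiated oocytes (log2 fold change 0.71, SE 0.158, edgeR unadjusted p = 0.0125, adjusted p = 0.777). Dispersion was larger for transcripts than for gene totals, at 0.473 against 0.0251 on edgeR's common estimate.

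The genes nearest to the 3 most abundant members in their levels were found by Euclidean distance of log2(TPM + 1) over the 4 libraries. For Zar1l these were Rps27 (distance 0.28, at 670, 681, 584 and 302 TPM) and Npm1 (0.32, at 623, 626, 529 and 381 TPM). Both were lowest in irradiated library 2, which a choice by distance over the same 4 libraries favours. For Zar1 they were Plat, a protease made by oocytes (0.21; 399, 462, 509 and 690 TPM), and Intu (0.23). For Cpeb1 they were Rnf4 (0.10) and Utp4 (0.14).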

How the data were processed

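The authors quality-trimmed the reads (paired-end, 100 bp), aligned them to GRCm38 with Bowtie2 and deposited estimated counts and TPM for each RefSeq transcript. The submitters' processing notes name HISAT2, Bowtie2, RSEM and mm10 without roles, and no versions are given in the sources used here. TPM is scaled to 1 total per library by the authors. The authors also deposited FPKM (4 columns, scaled by length and depth) and averages (6 columns), and these 10 columns were not used. Both values were summed over the transcripts of each gene ID; 17323 of 17374 gene IDs matched a RefSeq symbol. Replicates are the numbered libraries of a condition.

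Counts, rounded, went into edgeR 4.0.16 under R 4.3.3, where filterByExpr (min.count 10), TMM, glmQLFit and glmQLFTest were run on group alone, with Benjamini-Hochberg adjustment over all genes or transcripts tested. TMM factors were 0.923, 0.975, 0.937 and 1.19. Normalized counts are counts divided by the TMM-scaled library size and multiplied by its mean over the 4 libraries. Calls had an adjusted p below 0.05 and a difference of over 2 log2 units. Isoform usage was tested with diffSpliceDGE and Simes' method. DESeq2 1.42.0, limma 3.58.1 on log2(TPM + 1), other scalings, no filter, a replicate block, known transcripts only and leaving out each library were alternatives. Correlations, family shares, ratios and motif counts are descriptions. The edgeR, DESeq2, limma and isoform usage tests were tested on simulated data. Simulated counts had a dispersion near that of the gene totals and far below the 0.473 of the transcripts. Those runs therefore say little of the transcript and isoform tests at the spread seen here.

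The genes and lists were chosen with earlier results of these data known. Named genes are the whole set, its paralogs, genes of the wider list past both limits or among its 3 largest rises and falls at an unadjusted p under 0.05, the 2 genes nearest in level to each of the 3 most abundant, and transcripts with at least 5% of a gene; others were named after their values were seen. Plots used matplotlib 3.10.9 (Python 3.11.15).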

Additional observations from a re-analysis of the deposited data

How the results depend on the processing

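The number of gene totals past both limits (1) was 3 with no filter on low counts, 0 with library size alone, 4 with DESeq2, 7 with the replicate block, 0 in limma on TPM with each pseudocount and filter (228, 251 and 581 at an unadjusted p under 0.05), 0 with known transcripts only (472), and 16 to 84 with 1 library left out; the cause was not tested. The set's count (0) was 0 to 1 with 1 library left out, the 1 being Eif4e1b without irradiated library 1 (log2 fold change 2.54), and 0 otherwise. Under DESeq2, 248 transcripts passed in place of 0, and 2 of the set. Of 130 alternatives for the log2 fold changes, 122 kept direction and side of the threshold. That tally does not measure size, since no gene of the set passed both limits in the main fit. Among the 122 were Eif4e1b at 0.011 and Zar1l at -0.0022 without irradiated library 2, against 1.78 and -0.51 in the main fit. Zar1l at -1.31 without irradiated library 1 was also among them. In 7 alternatives, in 5 genes, the sign changed. Without irradiated library 1, Cpeb1 was -0.027, Patl2 -0.053 and Pabpc1l -0.10 (up to 0.19, 0.085 and 0.14 without irradiated library 2). Without control library 1, Pabpc1l was -0.0026. With known transcripts only, Lsm14b was -0.61, Eif4enif1 -0.025 and Pabpc1l -0.082. The Lsm14b value rests on a known transcript of at most 33 estimated counts. The replicate numbers are shared between groups, with no stated common batch; deviations of same-numbered libraries correlated at 0.078 over 12569 genes, and the replicate block gave 0 calls in the set. A library left out leaves 1 in its condition, assumed to vary like the other group. With 2 libraries per group, the spread of the irradiated group rests on 1 difference, and no outlier test applies to groups of 2.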
